A study of Mus musculus with 36 samples.

Results

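The methylomes compared here were those of the livers of 6 adult male mice, the 3 B6 sires and the 3 C3 sires of a reciprocal cross. B6 is C57BL/6N and C3 is C3H/HeN, inbred strains without an engineered allele, so that the animals of a strain are near identical in genome. The 6 sires were chosen by their labels from 24 animals with methylation counts. In the first cross B6 dams were mated with C3 sires and the progeny are called B6C3F1. In the reverse cross C3 dams were mated with B6 sires and the progeny are called C3B6F1. The 6 F1 sons, 3 of each cross, and the 6 dams were used to see whether a difference between the sires was also met in other animals, and they also entered the fit of the spread and the filter on counts. Parents were mated at 10 weeks and all animals were killed at 20 weeks of age.

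Methylation of cytosine in the dinucleotide CpG is copied onto the new strand after DNA replication by the maintenance methyltransferase. Most CpGs of a mammalian somatic genome are methylated, while active promoters and enhancers are depleted of the mark. Binding of transcription factors, among them the FOXA and HNF factors that define the hepatocyte, goes along with low methylation at liver enhancers. Where inbred strains differ in sequence their methylation can differ too, and animals that inherit one genome from each strain then carry both patterns in the same nuclei.

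Whole-genome bisulfite sequencing reads an unmethylated cytosine as thymine, and the data are counts of methylated and unmethylated reads at each CpG. Over the 18887127 autosomal CpGs the sires had 411528279 to 610111148 counts, or 21.8 to 32.3 reads per CpG. Percent methylation is the methylated share of counts. For a region the counts of its CpGs were added up before the share was taken, which gives weighted methylation. The genome was divided into fixed windows of 500 bp, and 1456902 windows with at least 5 CpGs and at least 30 counts in each of the 24 animals were tested. A window held a median of 7 CpGs and 198 counts per sire. A window was called differentially methylated when its Benjamini-Hochberg adjusted p in limma was below 0.05 and the mean of the B6 sires differed from that of the C3 sires by at least 20 percentage points. All reads had been aligned to mm9, the reference made from a B6 strain, and nearly all of the 2811885 listed autosomal single-nucleotide variants (SNVs) separate C3 from that reference, so that strain and distance from the reference cannot be told apart in read mapping. In whole liver, a change in the share of a cell type and a change in methylation within cells cannot be told apart either.

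The sequences of 4 regions on which the results turn are given first. They show what was compared between the strains. Each stretch holds 250 bases of the plus strand of mm9, with every CpG of the count table in capitals. The first lies over the start of Akr1e1, an aldo-keto reductase gene, at chr13:4608181-4608430, and holds 7 counted CpGs. The second lies over the start of Phldb2, which encodes a pleckstrin homology domain protein, at chr16:45844241-45844490, and holds 17. The third comes from an intergenic differentially methylated region (DMR) whose nearest start site is that of Klf13, at chr7:70947760-70948009, and holds 16. The fourth comes from a DMR whose nearest start site is that of Gm5444, at chr13:4942019-4942268, and holds 22. The stretch near Klf13 holds 1 listed SNV and the others hold 0. It is written G164T with the B6 base first and the position counted from 1 at the 5′ end of the stretch.
Akr1e1: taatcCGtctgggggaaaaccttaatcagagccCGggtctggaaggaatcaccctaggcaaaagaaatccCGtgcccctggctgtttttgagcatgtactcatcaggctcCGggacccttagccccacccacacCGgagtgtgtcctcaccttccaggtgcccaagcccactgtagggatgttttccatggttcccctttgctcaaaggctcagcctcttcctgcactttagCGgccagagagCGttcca
Phldb2: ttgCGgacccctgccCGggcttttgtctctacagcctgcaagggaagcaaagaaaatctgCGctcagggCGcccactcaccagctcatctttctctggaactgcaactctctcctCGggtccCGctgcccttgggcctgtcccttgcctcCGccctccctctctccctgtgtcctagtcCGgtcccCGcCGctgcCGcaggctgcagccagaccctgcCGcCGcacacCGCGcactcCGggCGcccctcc
DMR near Klf13: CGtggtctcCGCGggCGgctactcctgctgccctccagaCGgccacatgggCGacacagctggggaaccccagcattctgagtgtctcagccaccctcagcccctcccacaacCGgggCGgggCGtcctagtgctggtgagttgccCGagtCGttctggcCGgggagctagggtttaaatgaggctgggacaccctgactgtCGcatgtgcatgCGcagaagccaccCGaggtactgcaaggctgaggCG
DMR near Gm5444: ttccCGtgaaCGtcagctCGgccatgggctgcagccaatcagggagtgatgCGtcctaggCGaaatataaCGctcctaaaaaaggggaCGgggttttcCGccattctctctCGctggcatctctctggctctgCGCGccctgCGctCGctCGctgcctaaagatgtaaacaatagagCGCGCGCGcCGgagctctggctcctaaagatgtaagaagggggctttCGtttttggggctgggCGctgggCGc

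In the livers of these sires, 7978 windows were called between the strains, or 0.548% of those tested. The directions were nearly even, with 4007 windows B6 > C3 (0.275%) and 3971 windows C3 > B6 (0.273%). The median size of a called difference was 25.8 percentage points, with quartiles of 22.2 and 32.7 and a maximum of 87.6, while over all tested windows the median size was 1.82 points and the 99th percentile 15.9 points. The genome-wide levels of the strains lay close together. The median difference (B6 minus C3) over all tested windows was -0.68 points. Over all autosomal CpGs the B6 sires had 76.7% ± 0.210 methylation (SD, n = 3) and the C3 sires 77.1% ± 0.172, and the difference of -0.375 points (B6 minus C3) was not separated by the exact permutation test (two-sided, p = 0.2, with 0.1 as the smallest p for 3 animals against 3). With each CpG weighted equally, and only CpGs with at least 10 reads in every sire, the difference was -0.848 points. The strains then did not overlap (exact permutation test, p = 0.1). Weighting and set of CpGs changed together here.

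The spread between animals of a strain was small beside the called differences. Its median SD was 4.18 points within a strain at called windows and 2.41 points at all tested windows. In 7965 of the 7978 called windows the 3 sires of one strain all lay above the 3 of the other, against 18.9% of all tested windows. The call rests on the size of the difference and on the spread, so that it nearly fixes this separation. A difference of at least 40 points was met in 993 called windows, 512 with B6 > C3 and 481 with C3 > B6, and one of at least 70 points in 34, of which 13 were B6 > C3 and 21 C3 > B6. Without a minimum size 44210 windows had an adjusted p below 0.05. Just inside the limit of 20 points, 514 called windows lay within 0.5 points of it, and just outside it 518 windows with an adjusted p below 0.05 did.

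Most called windows had intermediate methylation in both strains. In 4199 of them (52.6%) both strain means lay between 20 and 80%, against 23.5% of all tested windows. Both means above 80%, as in 64.1% of all tested windows, or both below 20%, as in 4.48%, cannot occur in a called window, since the call asks for 20 points. The comparison of 52.6 with 23.5% therefore does not show that called windows were more often intermediate. Only 38 windows passed from below 20% in one strain to above 80% in the other, 17 of them with the high level in B6 and 21 in C3. Among these the window in an intron of Nod1, which encodes an intracellular sensor of bacterial peptidoglycan, at chr6:54904501-54905000, had 12.4, 8.90 and 8.54% methylation in the B6 sires and 95.8, 95.7 and 97.2% in the C3 sires. A window 8736 bp from the start of Pdcd2, at chr17:15673001-15673500, had 8.16, 13.2 and 10.0% in the B6 sires and 95.3, 92.8 and 93.3% in the C3 sires. In both windows the F1 sons lay between the strains, at 42.8% ± 3.91 (SD, n = 6) and 40.2% ± 5.96.

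Promoters were not where most differences lay. A promoter window was taken as one that touches the stretch from 1000 bp before to 500 bp after the start of a protein-coding transcript. Such windows made up 6.44% of called windows and 5.06% of all tested windows. The share differed with direction, at 4.64% of windows with B6 > C3 and 8.26% of windows with C3 > B6. Of 18814 genes with a tested promoter window, 171 had one with B6 > C3 (0.909%) and 273 had one with C3 > B6 (1.45%), so that 441 genes in all had a called window (2.34%).

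Among the 12 genes with the largest promoter differences with B6 > C3, the largest was at Cnot8, which encodes a deadenylase of the CCR4-NOT complex that shortens the tails of mRNAs. Its window, at chr11:57916501-57917000, had 67.3, 80.7 and 78.8% methylation in the B6 sires and 17.2, 10.7 and 13.4% in the C3 sires. On the scale of log2 ratios of methylated to unmethylated counts, B6 was higher by 4.25 (SE 0.30, limma adjusted p = 8.59e-12). The window shared by Lcmt2 and Adal at chr2:120967001-120967500, genes for a tRNA methyltransferase and an adenosine deaminase-like enzyme, had 73.5, 80.7 and 68.8% in the B6 sires and 14.3, 12.3 and 15.0% in the C3 sires (log2 difference 4.15, SE 0.22, limma adjusted p = 3.58e-14). No sire of one strain came near the range of the other at these windows.

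P2ry12, a purinergic receptor known from platelets and microglia, had 69.3, 80.3 and 81.3% in the B6 sires and 14.1, 15.6 and 24.3% in the C3 sires (limma adjusted p = 6.12e-12). Slc17a8, a vesicular glutamate transporter, had 77.2% ± 2.26 (SD, n = 3) in B6 and 22.7% ± 5.30 in C3. Abca3 and Abca17, neighbouring genes of lipid transporters of the ATP-binding cassette family, had 82.3% ± 3.87 and 76.1% ± 1.68 in B6 against 26.7% ± 7.49 and 25.1% ± 3.04 in C3. These are genes with main roles outside the hepatocyte. Depth in the windows of Abca3 and Abca17 was 10.4 and 17.1 reads per CpG in C3, against 26.9 and 36.3 in B6. Accn5, an acid-sensing ion channel gene, had 68.9% ± 4.51 against 19.01% ± 4.54. Rrp9, a gene for ribosomal RNA processing, had 52.0% ± 5.43 against 4.92% ± 1.17, but the C3 sires had a mean of only 4.69 reads per CpG there, against 15.1 in B6. The windows of A930018M24Rik, Ceacam19 and 2210010C17Rik differed by 53.3, 48.8 and 47.5 points.

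In the opposite direction several promoters were nearly free of methylation in the B6 sires. The Akr1e1 window at chr13:4608001-4608500, which holds the first printed stretch, had 4.46, 5.96 and 3.46% in the B6 sires and 75.7, 71.8 and 67.4% in the C3 sires. B6 was lower by a log2 ratio difference of -5.65 (SE 0.35, limma adjusted p = 1.17e-12). Its nearest listed SNV lay 584649 bp away, so that the differing methylation was seen on a sequence the list gives as equal. The window of Ccl27a, a chemokine gene, had 10.6% ± 2.29 in B6 and 75.7% ± 4.65 in C3, with its nearest SNV at 2112 bp. The C3 sires had 12.4 reads per CpG there, against 27.6 in B6.

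The Phldb2 window at chr16:45844001-45844500, with 28 CpGs, had 4.61, 12.6 and 5.56% in the B6 sires and 71.9, 72.0 and 70.6% in the C3 sires (log2 difference -5.03, SE 0.28, limma adjusted p = 6.88e-14). The dams had means of 33.0% in B6 and 77.0% in C3 there. Its strain difference was not called as differing between sires and dams (limma adjusted p = 0.113). Mcart1, a mitochondrial carrier gene, was the one of these 12 genes nearest to full absence of the mark in B6, at 0.227, 0.937 and 0.787%, against 54.3, 51.8 and 52.5% in C3 (limma adjusted p = 1.44e-14). Asb4, an ankyrin repeat gene, had 7.64% ± 0.986 against 69.6% ± 4.56. For liver metabolism the list held Cyp2c44, an arachidonic acid epoxygenase of the cytochrome P450 family, and Hsd17b4, the multifunctional enzyme of peroxisomal fatty acid oxidation. Cyp2c44 had 25.4, 36.3 and 32.5% in the B6 sires and 79.3, 81.2 and 87.7% in the C3 sires (limma adjusted p = 1.86e-11). Hsd17b4 had 20.9, 21.0 and 21.2% against 75.7, 75.9 and 81.3%, in a window 855 bp before its start. Pafah2, a platelet-activating factor acetylhydrolase, had 14.4% ± 5.09 against 75.1% ± 6.42.

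The remaining C3 > B6 promoters in this group were Gtf3a, Wee2, 4930481A15Rik and Numbl. Gtf3a, the transcription factor of 5S ribosomal RNA genes, had 17.7% ± 1.33 in B6 and 70.7% ± 3.71 in C3 at a C3 depth of 5.67 reads per CpG against 26.2 in B6. Wee2, an oocyte kinase gene, had 35.5% ± 3.95 against 86.7% ± 1.48, with the F1 sons close to C3 at 76.0% ± 5.45 (SD, n = 6). 4930481A15Rik had 5.54% ± 3.89 against 56.2% ± 2.70, and its sons spread from 42.7 to 72.3% (limma adjusted p of the sires = 0.00187). The dams had means of 19.7% in B6 and 58.1% in C3 there. Numbl, a gene related to Numb, had 28.8% ± 5.90 against 79.2% ± 6.62.

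**Figure D1:**
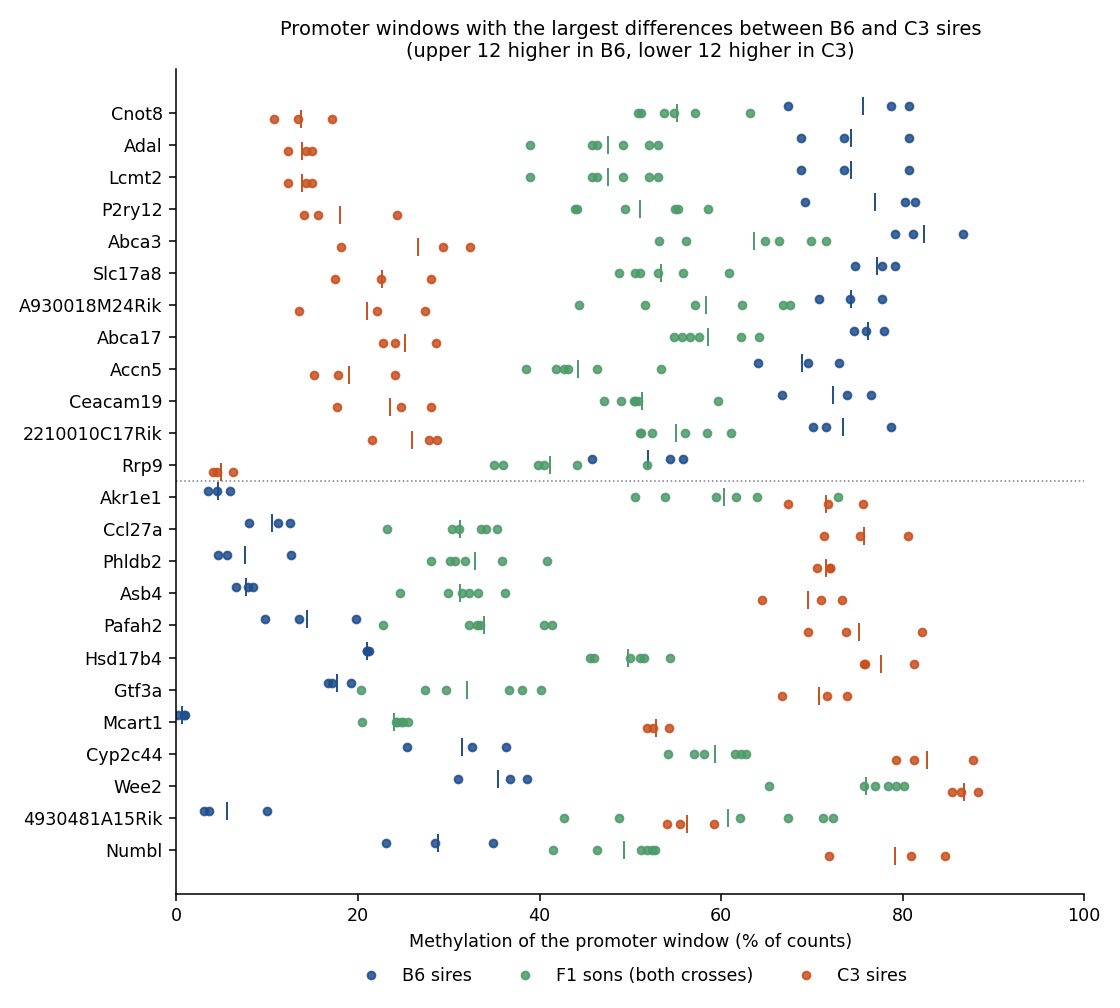
Percent methylation (x axis, % of counts) of the promoter windows of the 12 genes per direction with the largest difference between the sires (y axis, B6 > C3 above the dotted line). Each point is an animal and the ticks are group means. The points of the 3 B6 sires do not overlap those of the 3 C3 sires at any of the 24 genes, which was part of how they were chosen, and the 6 F1 sons lie between the strains at most of them.

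Genes of liver function were counted by list, each beside the 2.34% of all genes with a called promoter window. Among 49 cytochromes P450 only Cyp2c44 had a called window. Among 28 hepatocyte transcription factors the 1 called was Dbp, an activator of the circadian clock, at 34.6% ± 4.56 (SD, n = 3) in B6 and 57.5% ± 4.82 in C3. Among 46 conjugating enzymes 2 were called, both C3 > B6, namely the cholesterol sulfotransferase gene Sult2b1 at 57.0% ± 8.99 against 85.7% ± 2.65 and the glutathione transferase gene Gstm6 at 39.7% ± 4.59 against 61.5% ± 3.84. None of 44 serpins and none of 37 genes of complement and coagulation was called. Within 10 kb of the genes 1.02% of windows were called for transcription factors, 0.939% for cytochromes P450 and 0.745% for conjugating enzymes. For serpins and for complement and coagulation the shares were 0.612 and 0.609%, beside 0.548% of all windows. Median promoter differences (B6 minus C3) of these lists were 0.10 points for cytochromes P450, 0.11 for transcription factors, -0.12 for conjugating enzymes, 0.07 for serpins and 2.40 for complement and coagulation, against -0.15 over all promoters.

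In the lists for lipid metabolism and bile acids the 3 called promoters were B6 > C3, while Hsd17b4, Cyp2c44 and Pafah2, which stand outside these lists, had the other direction. Called windows within 10 kb of the genes went both ways, 10 with B6 > C3 and 7 with C3 > B6 of 2381 windows for lipid metabolism (0.714%) and 8 and 4 of 1331 for bile acids (0.902%), beside 0.548% of all windows. Lpin1, a phosphatidate phosphatase of triglyceride synthesis, had 58.0, 68.9 and 69.5% in the B6 sires and 32.6, 39.7 and 37.4% in the C3 sires. Apoc3, an inhibitor of triglyceride clearance, had 45.5, 47.3 and 42.5% against 25.9, 21.6 and 22.9%. In the dams Lpin1 had means of 63.3% in B6 and 44.5% in C3. Apoc3 had 29.1 and 21.8% in the dams, a difference that was not called (limma adjusted p = 0.315). Lpin1 and Apoc3 were 2 of 38 genes for apolipoproteins and lipid metabolism. Of 19 genes for bile acid synthesis and transport 1 was called, Baat, which conjugates bile acids to amino acids, at 33.9, 28.9 and 50% against 16.9, 15.4 and 18.7%. The Baat call rested on little (limma adjusted p = 0.0379) and was lost without B6 sire 3, where the difference was 14.4 points, and also when B6 sire 1 or any C3 sire was left out. The dams had the other direction at Baat, with 21.7% in B6 and 28.0% in C3 (limma adjusted p = 0.647). One of 8 major urinary proteins with a tested window was called, Mup16, at 20.3% ± 6.71 against 48.95% ± 9.79. That call was lost without B6 sire 2 or C3 sire 2 (limma adjusted p = 0.0910 and 0.0871), and the Mup genes are near-identical copies whose reads may be placed at the wrong copy. The dams did not show the Mup16 difference, with 18.9% in B6 and 14.7% in C3 (limma adjusted p = 0.875).

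Of 37 genes for MHC and antigen presentation 2 had a called promoter, both C3 > B6 and neighbours in the MHC region of chromosome 17, where the strains carry different haplotypes. Tap1, the transporter of peptides into the endoplasmic reticulum, had 58.5, 64.2 and 58.1% in the B6 sires and 94.9, 93.8 and 95.3% in the C3 sires. Psmb8, a subunit of the immunoproteasome, had 27.4% ± 5.99 against 50.02% ± 5.77, and lost its call without B6 sire 3 or C3 sire 1. Within 10 kb of the genes of this list 15 of 655 windows were called (2.29%), beside 0.548% of all windows. Among 67 innate immune sensors and interferon genes only the promoter of Tlr6, a toll-like receptor for bacterial lipopeptides, was called, at 73.8, 83.0 and 76.8% in B6 and 32.1, 37.1 and 38.3% in C3. Within 10 kb of the genes of that list 0.914% of windows were called.

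In the large gene families the share of genes with a called promoter was 2.40% for zinc finger genes and 2.79% for solute carriers, near the 2.34% of all genes. Of 333 zinc finger genes 5 were B6 > C3 and 3 C3 > B6, with the extremes at Zfp953 (79.8% ± 1.95 in B6, 43.1% ± 6.70 in C3) and Zfp866 (24.2% ± 6.01 against 65.7% ± 7.91). Of 547 olfactory and vomeronasal receptors 1 was called in each direction, Olfr368 and Olfr90, or 0.366%. Of 323 solute carriers 5 were B6 > C3 and 4 C3 > B6. Slc6a4, the serotonin transporter gene, had 43.1% ± 6.06 against 72.0% ± 5.94, and Slc39a2, a zinc transporter gene, had 79.2% ± 2.29 against 56.7% ± 0.809. Of 32 imprinted genes only Ube3a, a ubiquitin ligase gene imprinted in neurons, had a called window, 622 bp from its start, at 29.8% ± 6.09 in B6 and 5.68% ± 1.98 in C3.

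Markers of the cell types of the liver were measured in the same way. The promoters of 15 hepatocyte markers had a median methylation of 22.8 to 24.4% in the B6 sires and 16.7 to 19.7% in the C3 sires, and those of 4 Kupffer cell markers 68.9 to 76.8% and 77.5 to 80.6%. In both lists the strains did not overlap, and neither list had a called member. The 11 stellate cell and cholangiocyte markers had 26.9 to 31.5% in B6 and 32.2 to 36.5% in C3, also without overlap, with 2 called members. These were Spp1, the gene for osteopontin, at 41.0, 38.3 and 41.5% against 85.7, 77.4 and 80.7%, and Reln, the gene for reelin, at 34.1% ± 3.25 against 55.0% ± 6.29 in a window 978 bp from its start. In the window nearest to its start, from which the marker levels were taken, Reln had 0.0854 to 0.694% in the 6 sires, with overlap of the strains. The 10 endothelial markers had 67.5 to 73.1% and 72.3 to 76.4%, and the 11 leukocyte markers 84.5 to 86.9% and 85.9 to 87.0%, in both cases with overlap and with 0 called. These levels are medians over unlike promoters, and most single members of each list overlapped between the strains. Of all tested windows 18.9% were without overlap of the strains, and 2.34% of all genes had a called promoter window. In the hepatocyte list Ahsg, Apoa1, Apoa2, Fgb, Hpx and Serpina1a did not overlap. In the Kupffer cell list this held for Cd68 only, and in the stellate cell and cholangiocyte list for Epcam, Krt7 and Spp1. It also held for the endothelial markers Cdh5, Oit3 and Clec4g, the last with B6 higher, and the leukocyte markers Cd3e and Cd79a. The medians of the hepatocyte, the Kupffer cell and the stellate cell and cholangiocyte lists moved with strain. The part of cell types in the differences between the sires was not tested.

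Called windows lay where the strains differ in sequence. A listed SNV was inside 65.0% of called windows and 22.1% of all tested windows, and within 1 kb of 86.5% and 39.1%. The median number of SNVs in the surrounding 100 kb was 240 for called windows and 24 for all. Among windows with 0 SNVs in 100 kb, 0.0790% were called, and the share rose at each step of SNV density, through 0.394% at 50 to 99 SNVs to 2.28% at 400 or more. The directions did not differ in this, with an SNV in 65.4% of B6 > C3 and 64.5% of C3 > B6 windows.

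Depth moved with the same measure. The ratio of C3 to B6 depth had a median of 0.824 in called windows and 1.02 in all windows. It was below 0.5 in 17.2% of called windows and in 2.18% of all. Among windows with a depth ratio from 0.9 to 1.1, where the strains were read equally, the share of windows called rose from 0.0667% without SNVs in 100 kb to 1.35% at 400 or more. The order of the bins was therefore the same at equal depth, at lower shares.

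**Figure D2:**
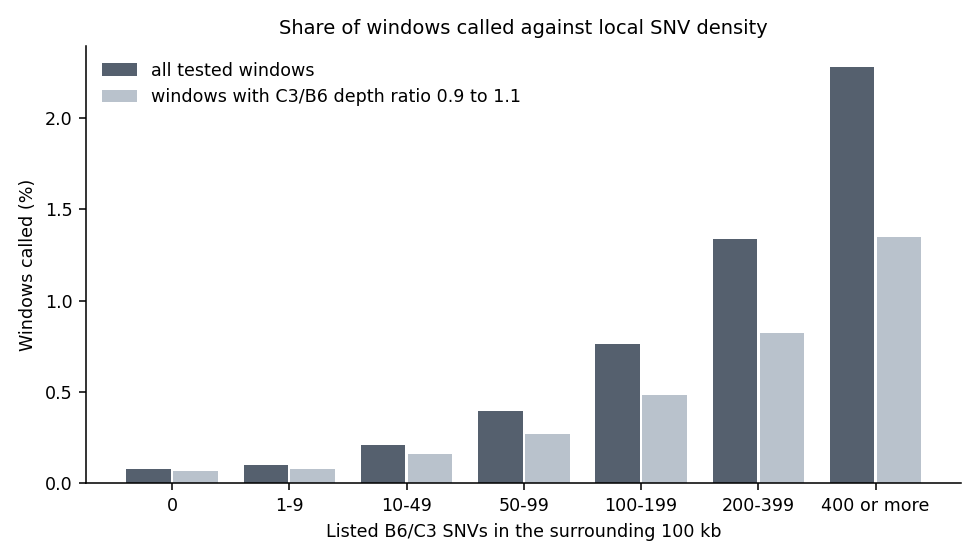
Share of tested windows that were called between the B6 and C3 sires (y axis, %) by the number of listed SNVs in the surrounding 100 kb (x axis). Dark bars are all tested windows and light bars those with a C3 to B6 depth ratio of 0.9 to 1.1. Both rise from bin to bin, from 0.0790 to 2.28% and from 0.0667 to 1.35%.

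The calls were unevenly spread along the chromosomes. Chromosome 4 had the highest share of called windows, 0.739% or 692 windows, and chromosomes 10 and 16 the lowest, 0.395 and 0.412%. Of 2142 bins of 1 Mb with at least 200 tested windows, 717 (33.5%) held no called window. The median of SNVs per 100 kb was 0.794 in these and 113 in the others. The densest bins were at 20 to 21 Mb of chromosome 12, with 24 of 409 windows called (5.87%) at a mean of 71.8 SNVs per 100 kb, and at 52 to 53 Mb of chromosome 14, with 26 of 482 (5.39%) at 346.

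By position in genes, called windows were much like the windows tested. They were exonic in 15.6%, intronic in 41.7% and intergenic in 42.7% of cases, against 15.5, 38.7 and 45.7% of all tested windows. The 2 directions differed from each other more. Windows with C3 > B6 were exonic in 18.5% and windows with B6 > C3 in 12.7%, and their median distance to a start site was 17040 bp against 25289 bp. Of all called windows 66.8% lay more than 10 kb from any start site, against 73.7% of those tested. These shares are descriptions and were not tested.

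Calls also lay side by side. Joined over gaps of at most 2 kb, the B6 > C3 windows formed 3403 runs, of which 468 held more than 1 window, and the C3 > B6 windows 3270 runs, of which 523 did. The longest was at chr4:133435501-133442500 in Rps6ka1, a ribosomal S6 kinase gene, where the B6 sires had 67.5% ± 1.47 and the C3 sires 37.4% ± 3.09 (SD, n = 3) over 7000 bp. In an intron of Pax7, a transcription factor of muscle stem cells, a run of 6500 bp at chr4:139361501-139368000 had 62.7% ± 2.32 and 32.7% ± 0.357. A further run of 6500 bp, at chr2:70999001-71005500, was intergenic, 43021 bp from the start of Cybrd1, with 89.6% ± 1.45 and 65.5% ± 1.57. Of the runs with C3 > B6, the longest was 6000 bp over an exon of Ppp1r3b, which encodes a glycogen-targeting subunit of protein phosphatase 1 in liver, at chr8:36446001-36452000, with 44.5% ± 4.23 in B6 and 67.2% ± 4.18 in C3. Runs of 5000 bp lay at Iffo2, with 49.5% ± 2.56 and 85.8% ± 1.36, and 146 bp from the start of Gdf15, a stress-induced cytokine, with 58.4% ± 1.38 and 82.9% ± 2.58. These named runs were the longest in bp but were not called throughout, with 4 or 5 called windows in each. The most called windows in a run were 7 with B6 > C3 and 8 with C3 > B6.

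A minority of called windows were far from any listed SNV. Of 579322 tested windows more than 10 kb from an SNV, 494 were called (0.0853%), 228 with B6 > C3 and 266 with C3 > B6, and of 877580 windows within 10 kb 7484 were called (0.853%). Depth was near equal in the far ones, with a median C3 to B6 ratio of 1.06. Akr1e1 was among them. It lies in a stretch of chromosome 13 between 4 and 5 Mb with 6 called windows, whose nearest listed SNVs were 374149 to 776649 bp away. Another of the 6, at chr13:4942001-4942500, covers the fourth printed stretch and had 3.56, 29.8 and 7.36% in the B6 sires and 95.8, 95.9 and 96.8% in the C3 sires. The second B6 sire stood apart from the other two there. The exonic window of Ttc25, a tetratricopeptide repeat gene of cilia, at chr11:100432501-100433000 had 16.5, 18.3 and 12.6% in B6 and 80.7, 81.0 and 83.9% in C3. A window 7230 bp from the start of Ndufaf4, at chr4:24817501-24818000, had the reverse direction, with 82.6, 87.4 and 82.8% in B6 and 23.0, 16.6 and 10.9% in C3.

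Where an SNV makes or breaks the binding motif of a liver transcription factor, the motif is present in one strain only. Motifs were searched on both strands in the mm9 sequence of each window and again with the listed C3 bases put in, as TGTTTAC for FOXA, CAAAGTCC for HNF4, TTGCAAT or TTGCGCA for CEBP, CACGTG for USF, TTCNNNGAA for STAT and a consensus for HNF1. They were present in 7.05, 1.98, 5.47, 9.11, 15.7 and 0.396% of all tested windows, in that order with HNF1 last. The pairs below show called windows that differ in such a motif, with the motif site in capitals in both strains. Positions are counted from 1 at the 5′ end of each printed stretch of the plus strand. The first pair lies in the Mcart1 promoter window at chr4:45422355-45422395 and holds T18G, which removes the FOXA motif from C3. The second lies in an intron of Sox5 at chr6:144406179-144406219 and holds C18G, which makes a FOXA motif in C3 on the minus strand. The third, in an intron of Cybrd1 at chr2:70963191-70963234, holds T24A, which removes an HNF1 motif from C3, and the fourth, at chr10:99404742-99404785, holds C18G, which makes one there. The fifth, in an intron of Cdh1 at chr8:109157669-109157710, loses an HNF4 motif in C3 by A20G and holds a further SNV. The sixth, in an intron of Nceh1 at chr3:27105704-27105745, gains one in C3 by G23T. The whole 500-bp windows of these pairs held 7, 4, 4, 4, 3 and 2 listed SNVs, in the order of the pairs.
FOXA, Mcart1, B6: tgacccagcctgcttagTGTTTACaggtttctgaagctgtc
FOXA, Mcart1, C3: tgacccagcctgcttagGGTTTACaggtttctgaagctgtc
FOXA, Sox5, B6: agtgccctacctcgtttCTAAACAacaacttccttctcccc
FOXA, Sox5, C3: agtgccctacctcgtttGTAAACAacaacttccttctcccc
HNF1, Cybrd1, B6: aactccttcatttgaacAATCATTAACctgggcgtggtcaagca
HNF1, Cybrd1, C3: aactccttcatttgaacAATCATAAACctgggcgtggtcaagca
HNF1, near Kitl, B6: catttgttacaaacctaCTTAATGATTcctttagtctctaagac
HNF1, near Kitl, C3: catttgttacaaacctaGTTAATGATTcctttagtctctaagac
HNF4, Cdh1, B6: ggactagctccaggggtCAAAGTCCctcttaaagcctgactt
HNF4, Cdh1, C3: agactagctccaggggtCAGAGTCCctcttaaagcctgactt
HNF4, Nceh1, B6: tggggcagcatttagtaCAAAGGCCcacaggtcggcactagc
HNF4, Nceh1, C3: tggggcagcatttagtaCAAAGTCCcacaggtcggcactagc

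In each of these 6 windows the strain with the motif had the lower methylation. At Mcart1, with the FOXA motif in B6, the sires had 0.650% ± 0.374 in B6 and 52.8% ± 1.27 in C3 (SD, n = 3). At Sox5, with the FOXA motif in C3, they had 89.5, 92.4 and 88.2% in B6 and 31.9, 21.9 and 23.0% in C3. The windows were the largest differences of their kind with the lower level beside the motif, so that their direction was set by that choice. Cybrd1, the duodenal ferric reductase, had 64.2% ± 5.74 in B6 and 94.2% ± 0.894 in C3, and the window 73264 bp from the start of Kitl, the gene for stem cell factor, 82.9% ± 1.78 and 13.9% ± 6.38. Cdh1, the gene for E-cadherin, had 26.9% ± 2.80 and 74.6% ± 2.29, and Nceh1, a cholesterol ester hydrolase, 90.4% ± 1.95 and 39.0% ± 7.83.

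The counts over windows with a motif in one strain only do not depend on that choice of windows, though the motifs were listed with earlier results known. For FOXA there were 1151 such windows, 48 were called (4.17%), and in 43 of the 48 the strain with the motif was the lower one. For HNF1 12 of 78 were called (15.4%), all 12 lower beside the motif, and for HNF4 29 of 425 (6.82%), 23 of them lower beside the motif. Over all windows with the motif in one strain only, called or not, the strain with the motif was the lower one in 61.9% for FOXA, 57.7% for HNF1 and 57.9% for HNF4, and in 47.9 to 51.6% for the other motifs. Of all 321702 windows with an SNV 1.61% were called. The other motifs were more evenly divided. CEBP had 16 lower and 12 higher beside the motif, STAT 16 and 15, and USF 43 and 24, with 2.50, 1.61 and 2.29% of windows called. At a depth ratio of 0.9 to 1.1 the FOXA count was 10 of 12, the HNF1 count 3 of 3 and the HNF4 count 5 of 8. A motif match is no measurement of binding, and the counts were not tested.

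**Figure D3:**
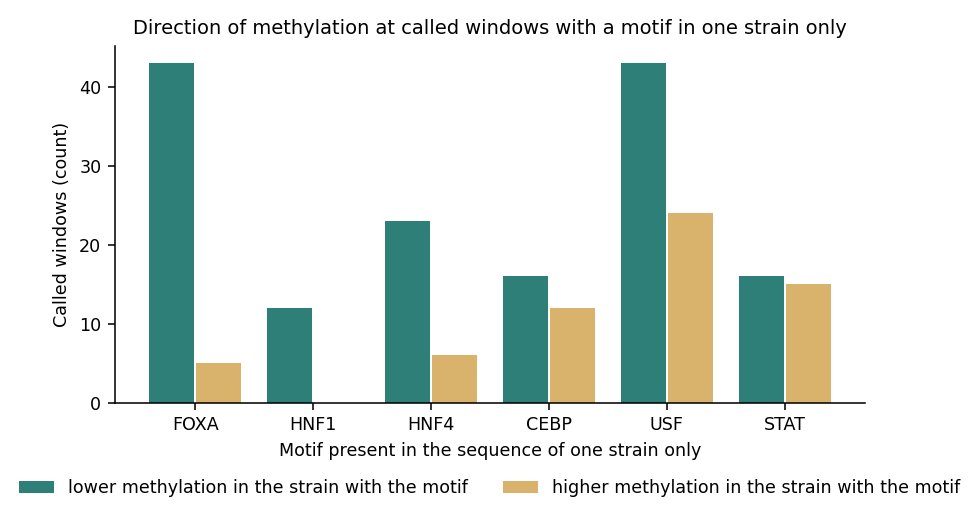
Number of called windows (y axis) in which the strain that holds a motif had the lower (teal) or the higher (sand) methylation, for windows with the motif in one strain only (x axis, motif). FOXA windows were divided 43 to 5, HNF1 12 to 0 and HNF4 23 to 6, while CEBP and STAT were near even at 16 to 12 and 16 to 15.

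Single CpGs gave a second view with the 6 sires alone. By a beta-binomial Wald test after the model of DSS, 63513 of 18226031 CpGs were differentially methylated (DMCs) at p below 1e-05, or 0.348%. Of these 31962 were B6 > C3 and 31551 C3 > B6. Only 12759 of the DMCs lay in DMRs, and the rest formed no region. There were 1625 DMRs, 765 with B6 > C3 and 860 with C3 > B6, over 654666 bp in all. A DMR had a median of 287 bp and 7 CpGs and a median difference of 45.7 points. The sires did not overlap in any DMR, which the choice of DMRs by these same sires nearly fixes. A called window was overlapped by 1431 of the DMRs (88.1%). An SNV lay in 967 (59.5%), and 67.3% lay more than 10 kb from a start site.

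The DMRs with the largest differences passed almost the whole scale. In the one at chr7:70947600-70948049, which holds the third printed stretch and 24 CpGs, the B6 sires had 90.2, 89.3 and 94.2% weighted methylation and the C3 sires 5.05, 5.65 and 3.73%. The F1 sons lay at 37.4 to 56.5%. All 24 of its CpGs were DMCs. In the one in an intron of Nod1, at chr6:54904687-54905349, the B6 sires had 8.00% ± 2.00 and the C3 sires 94.4% ± 0.749, with the sons at 40.9% ± 4.21 (n = 6). Others with B6 > C3 lay 1232 bp from the start of Nnt, the mitochondrial transhydrogenase gene (87.5% ± 3.08 in B6, 6.46% ± 2.60 in C3), and in an intron of Ptprg, a receptor tyrosine phosphatase gene (94.1% ± 1.59 and 15.3% ± 7.23). Trpc4ap, a gene for a TRP channel-associated protein, held one with C3 > B6 in an intron (18.0% ± 3.85 and 94.7% ± 2.21).

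Of these largest DMRs 2 with C3 > B6 held many CpGs and 0 listed SNVs, and in both the sons differed from the rest. At chr13:4941909-4942397, with 34 CpGs, the B6 sires had 3.76, 30.0 and 6.94% and the C3 sires 95.5, 95.3 and 96.8%. The sons lay at 73.0 to 95.0%, close to the C3 sires. At chr6:37414011-37414698, 21865 bp from the start of Creb3l2 and with 35 CpGs, the B6 sires had 11.9, 17.1 and 10.98% and the C3 sires 90.8, 88.5 and 89.9%. There the B6C3F1 sons had 37.9, 29.6 and 32.7% and the C3B6F1 sons 58.1, 43.3 and 66.0%, so that the crosses did not overlap. The region was singled out after its values were seen, and the difference between the crosses was not tested. The loci Meox1, Nod1, Tuba3a and Pgd, which were listed by name with earlier results known, were called as well, with C3 > B6 in each. Among them Meox1, a homeobox gene, had the largest difference after Nod1, at 13.9% ± 3.61 in B6 and 74.5% ± 11.03 in C3. Its depths were 24.3 and 9.37 reads per CpG. Tuba3a and Pgd had 42.9% ± 4.51 and 31.0% ± 2.53 in B6 against 92.9% ± 2.66 and 79.1% ± 1.07 in C3. Depth at Tuba3a was 28.2 reads per CpG in B6 and 9.83 in C3.

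The dams of the same strains showed nearly the same differences. The difference between the dams was not used in the call, although their spread and counts entered the fit and the filter. With the 6 sires alone in the fit 8317 windows were called. Their means differed in the same direction at 7941 of the 7978 windows (99.5%), against 61.6% of all tested windows. At 7066 (88.6%) the dams had an adjusted p below 0.05 in limma as well. Over the B6 > C3 windows the mean difference was 29.2 points in the sires, which had chosen the windows, and 26.0 in the dams, and over the C3 > B6 windows -29.1 and -26.6. By the full rule 7816 windows were called in dams (0.536% of those tested). The 5357 called in both sexes were 67.1% of the calls of the sires and 68.5% of those of the dams.

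After adjustment over all windows, the strain difference depended on sex at few of them. The contrast of the sires' difference with that of the dams was called in 22 of all windows (0.00151%), of which 13 were among the windows called in sires. Without adjustment 1308 of the 7978 windows called in sires had p below 0.05 in this contrast in limma. The sires' difference chose these windows and enters the contrast, which can raise that count, and the share over all tested windows is not given here. In 11 of the 13 windows called in both the sires differed with B6 > C3. At Scp2, the gene for sterol carrier protein 2, which moves cholesterol and branched-chain fatty acids in hepatocytes, an intronic window at chr4:107776501-107777000 had 77.4, 73.8 and 75.4% in the B6 sires and 26.5, 29.9 and 36.1% in the C3 sires. The dams of both strains were high there, at 82.4% in B6 and 79.8% in C3. In the exonic Abca17 window at chr17:24402001-24402500 the B6 sires had 65.2, 67.1 and 73.9%, and the C3 sires, B6 dams and C3 dams were all low, with means of 17.8, 30.4 and 22.3%.

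At several of these 13 windows the C3 sires stood apart from the other groups. Windows called in sires cannot show a group of dams that alone stands apart. A window 173584 bp from the start of Srek1 had 55.3% in the C3 sires and 93.7 to 95.3% in the other 3 groups, and one near Tnfrsf14 had 56.8% in the C3 sires and 89.1 to 90.5% in the others. In the exon window of Accn5 at chr3:81803501-81804000 the C3 sires had 34.9% and the other groups 65.0 to 74.0%. An intronic window of Itpr1, the calcium release channel of the endoplasmic reticulum, had 85.4% in the C3 sires, 62.8% in the B6 sires and 43.3% in the dams of either strain. The dams had borne litters, so that sex and reproductive history cannot be told apart. The count of 13 fell to 2 without B6 sire 3 or without C3 sire 1, to 5 without B6 sire 2 and to 7 without B6 sire 1 or C3 sire 2.

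**Figure D4:**
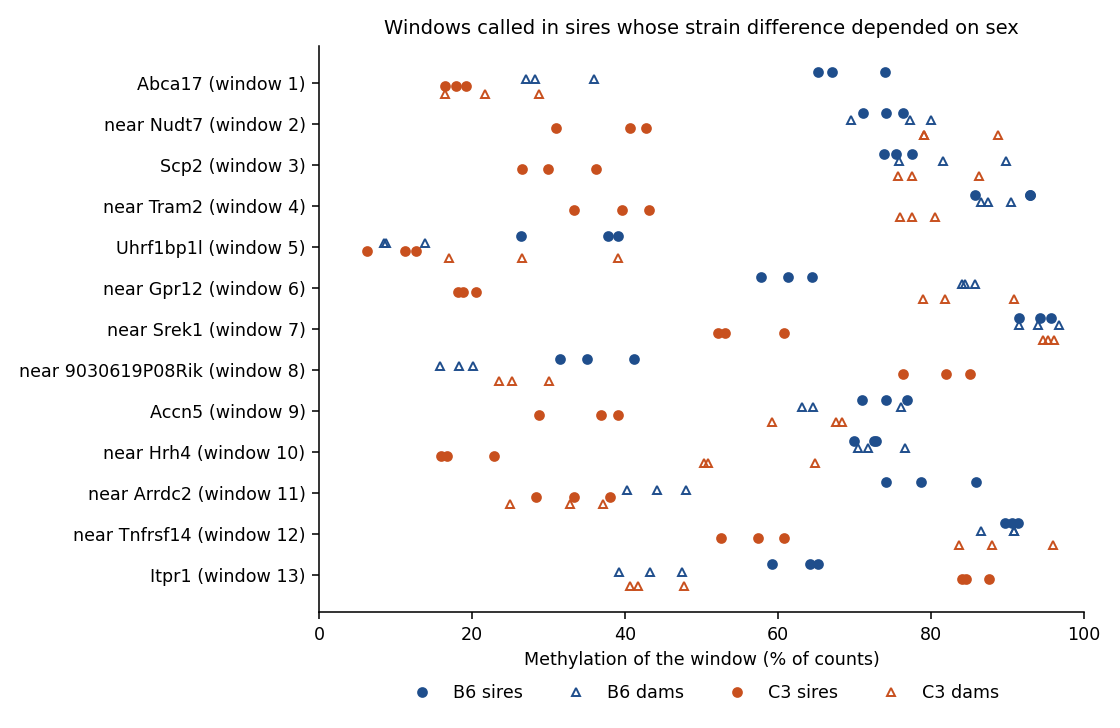
Percent methylation (x axis, % of counts) of the 13 windows called in sires at which the strain difference depended on sex (y axis, by gene or nearest start site). Each point is an animal, with circles for sires and triangles for dams, B6 in blue and C3 in orange. At Scp2, Nudt7, Tram2, Gpr12, Srek1, Accn5, Hrh4 and Tnfrsf14 the C3 sires lie below every animal of the other 3 groups.

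The F1 sons lay between the sires. Over the 4007 windows with B6 > C3 the mean methylation was 71.2% ± 0.159 in the B6 sires and 42.0% ± 1.03 in the C3 sires (SD, n = 3). It was 59.5% ± 0.384 in the B6C3F1 sons and 59.8% ± 0.217 in the C3B6F1 sons. Over the 3971 windows with C3 > B6 the order was reversed, with 43.1% ± 0.408 in the B6 sires, 72.2% ± 0.611 in the C3 sires, 55.3% ± 0.386 in the B6C3F1 sons and 55.7% ± 0.434 in the C3B6F1 sons. The values of the sires chose these windows, so that a test of the sons against the sires over them is not independent of that choice, and none is given. Over the windows called in dams, which the sires' difference did not choose, the sires and sons were in the same order. At the 3803 of these with B6 > C3 the 6 sons lay at 60.6 to 61.2%, the B6 sires at 71.1 to 71.7% and the C3 sires at 44.0 to 45.5%. At the 4013 with C3 > B6 they lay at 54.4 to 55.3%, 43.9 to 44.4% and 69.5 to 70.7%. There the sons differed from each strain with p = 0.0238 in two-sided exact permutation tests of 6 animals against 3, the smallest p these allow (0.0357 after Benjamini-Hochberg adjustment over the 6 tests at these windows). Between the crosses the exact permutation test gave p = 0.4 at the B6 > C3 and p = 0.3 at the C3 > B6 windows called in dams, and 3 sons against 3 cannot go below 0.1.

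**Figure D5:**
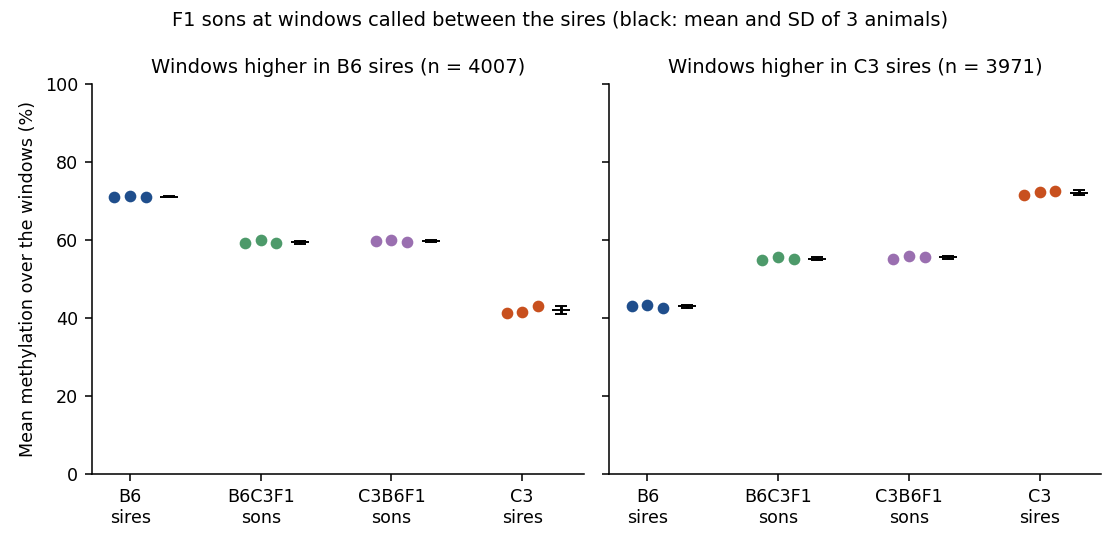
Mean methylation per animal (y axis, %) over the windows with B6 > C3 (left, 4007 windows) and C3 > B6 (right, 3971 windows). Points are animals and black bars the mean and SD of 3. The 6 F1 sons lie between the sires in both panels, between 59.3 and 60.1% on the left and between 55.0 and 56.1% on the right.

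On a scale with C3 sires at 0 and B6 sires at 1, the sons were at 0.605 ± 0.0110 (SD, n = 6) in windows with B6 > C3 and at 0.576 ± 0.0146 in windows with C3 > B6, and in the windows called in dams at 0.609 ± 0.00851 and 0.589 ± 0.0163. They were thus nearer to B6 than to C3 in windows of either direction. The C3 genome gave fewer reads at many of these windows, and the position moved with that. Where the depth ratio of C3 to B6 sires was below 0.5, the median position was 0.721, and where it was 0.5 to 0.75, 0.620. The share of B6 in the summed depth of both strains was 0.716 and 0.613 there. At ratios of 0.75 to 0.9, 0.9 to 1.1 and above 1.1 the median position was 0.569, 0.529 and 0.508 and that share 0.546, 0.501 and 0.460. The part of depth in the position was not tested. In windows with a depth ratio of 0.9 to 1.1 the sons were at 0.547 in the B6 > C3 windows and at 0.513 in the C3 > B6 windows.

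Single windows varied around this middle. The mean of the sons lay outside the range from one strain mean to the other in only 54 of the 7978 windows. By a stricter count it was between the strains in 7278 (91.2%), and every son was in 3759 (47.1%). The median position was 0.586, with quartiles of 0.493 and 0.687. Of the DMRs, 1622 of 1625 had the mean of the sons between the strains. Sons at the level of one strain were few where depth was equal, with 24 windows above 0.9 and 18 below 0.1 among 2240.

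Windows with a difference of at least 40 points, equal depth and the sons at one end of the scale numbered 8, and at all 8 the sons had the level of the more methylated strain. This was C3 at 7 of them and B6 at the window chr4:155510501-155511000, 26393 bp from the start of 9430015G10Rik, with 94.1% ± 0.969 in the B6 sires, 45.0% ± 3.34 in the C3 sires and a mean of 91.6% in the sons. At chr2:161337001-161337500, far from any start site, the B6 sires had 24.6, 22.8 and 24.6%, the C3 sires 94.2, 95.2 and 95.2%, and the 6 sons 89.2 to 96.4%. The next window of the grid, which starts at 161337501, was a further one. In an intron of Sntg1, a syntrophin gene, the B6 sires had 46.7%, the C3 sires 96.3% and the sons 95.6%. Akr1e1 came close to this pattern, with 61.6, 50.5 and 59.4% in the B6C3F1 sons and 64.0, 72.8 and 53.8% in the C3B6F1 sons, a position of 0.168 on the scale. The Ttc25 exon was similar, with the sons at 69.96% ± 2.24 and a position of 0.180. Among all 494 called windows more than 10 kb from an SNV the median position was 0.519.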

How the data were processed

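Per-CpG counts of methylated and unmethylated reads were deposited by the authors for each of 24 animals, both strands together and without normalization. To make them the authors filtered reads by base quality, mapped them to mm9 and the lambda genome with Bismark, removed duplicates, clipped ends, trimmed overlapping mates, merged the libraries of an animal and kept CpGs present in mm9 and both strains. Tools listed in the submitters' processing notes include Bismark 0.7.8, Bowtie 0.12.8, cutadapt 1.2.1 and Picard 1.110. The SNV list was made from genomic sequence of 1 male and 1 female per strain, and the program that called the SNVs is not given in the sources used here.

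Counts were summed in fixed 500-bp windows with at least 5 CpGs and 30 counts in each animal. Log2 ratios of the counts, with a pseudocount of 1, were fitted in limma 3.58.1 (R 4.3.3) over 24 animals with a mean for each of 8 groups of strain or cross and sex, with trended and robust variances. Each animal was 1 replicate. DSS was not run, and a CpG entered the Wald test built on its beta-binomial model with at least 5 reads in at least 2 sires per strain, and its p was not adjusted. A DMR was built from runs of at least 3 tested CpGs with at least 50 bp and 75% DMCs, joined within 100 bp. It then needed at least 5 CpGs of the count table, tested or not, and 20 points of weighted difference. Gene models were GENCODE vM1 on mm9 (NCBIM37), with coordinates counted from 1. Counts per window, a median of 198 per sire, set the precision, and PCR duplicates had been removed by the authors. On simulated counts of chromosome 19 for the B6 and C3 sires, limma called 91 of 100 changed windows at 25 points and 100 of 100 at 40 points. Among the 42678 windows it called 0 unchanged ones. Among 509268 CpGs the Wald test found 14 of 100 changed regions at 30 points and 100 of 100 at 60 points. It gave 0 regions without a changed CpG, and single CpGs were not counted in this. The simulation gave every site the same spread between animals, while that of the data varied. It therefore gives no rate of false calls for the data.

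Members, gene lists, motifs and tests were chosen with earlier results of these data known. Promoters named are the 12 genes per direction with the largest difference among called windows without overlap of the sires, 1 window per gene. DMRs named are the 5 per direction with the largest difference at a depth of at least 10 reads in every sire and a depth ratio of 0.5 to 2. Up to 4 called members per list and direction, the 3 longest runs per direction and 4 loci listed by name were added. Other named windows were chosen after their values were seen. Alternatives were other count minimums, pseudocounts, scales, grids, minimum differences and tests, thinned reads and leaving out each sire. The FOXA1 ChIP samples and the share of repeats were not analysed here, and 1 named window is not reported here.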

Additional observations from a re-analysis of the deposited data

Results flagged for a closer look

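At 13 windows called in sires the difference between the strains was not the same in sires and dams, by limma's test of the difference of differences (adjusted over all windows). Since the windows were taken from those called in sires, and the sires enter this contrast, the size of the difference in sires is not independent of that choice. Values are the difference in sires (B6 minus C3) minus that in dams, in percentage points. They were 42.8 in an exon of Abca17 on chromosome 17, 42.4 near Nudt7 on chromosome 8, 42.1 in an intron of Scp2 on chromosome 4 and 41.8 near Tram2 on chromosome 1. Further values were 41.5 in an intron of Uhrf1bp1l on chromosome 10, 41.2 near Gpr12 on chromosome 5, 39.7 near Srek1 on chromosome 13 and 36.2 in an exon of Accn5 on chromosome 3. They were 35.6 near Hrh4 on chromosome 18, 33.8 near Arrdc2 on chromosome 8 and 33.5 near Tnfrsf14 on chromosome 4. Negative values were met near 9030619P08Rik on chromosome 15, at -37.0, and in an intron of Itpr1 on chromosome 6, at -22.5.

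In the Uhrf1bp1l window the dams had the opposite direction, with 10.4% in B6 and 27.5% in C3 against 34.4 and 10.0% in the sires. Near Hrh4, by contrast, B6 was the higher strain in both sexes, with 71.7 and 18.5% in sires and 72.9 and 55.3% in dams. Adjusted p-values lay between 0.0024 and 0.0494, and 9 more windows passed the test without being called in sires.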

How the results depend on the processing

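The counts of windows called in sires, of DMCs and of DMRs were recomputed under alternatives set with earlier results known, while those of windows called in dams and of promoters were not. With at least 100 counts in each animal 3702 windows were called, 1805 with B6 > C3 and 1897 with C3 > B6, among 1015496 windows that pass this filter. A minimum difference of 10 points gave 31456 (13772 and 17684) and one of 30 points 2582 (1292 and 1290). Without one sire the count was 8108 to 8429. Smoothing over 250 bp gave 28536 DMCs, of which the cause was not tested. Without one sire there were 49706 to 54192 DMCs and 1225 to 1346 DMRs. The DMR count was 2208 at a DMC threshold of 1e-04 and 2300 with 50% DMCs.

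The sons' position in B6 > C3 windows was 0.547 at a depth ratio of 0.9 to 1.1, 0.561 with at least 100 counts and 0.592 to 0.620 without one sire. In C3 > B6 windows it was 0.513, 0.527 and 0.558 to 0.588, and 0.594 with the dams as the ends of the scale. The count of 13 windows that depended on sex was 2 to 10 when recomputed without one sire. The same replicate numbers hardly deviated together between strains (correlations 0.0048 to 0.0074). For unlike numbers the correlations were -0.0049 to -0.0010. With the replicate number as a block 7981 windows were called and 10 depended on sex. The latter was an alternative chosen after the data were seen.

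Among 57 named windows 10 lost their call under at least 1 alternative, and none changed direction. A named window that missed the filter of an alternative was skipped there and not counted as lost, and the shifted grid was left out. The number of checks was 769. Of the 10 named DMRs 7 were found again with at least 10 reads in each sire, 8 after thinning, 9 with smoothing or without C3 sire 2 or 3, and all 10 under the other alternatives run, while of all 1625 DMRs 68% were found again with smoothing. The windows that lost their call included Baat under 7 alternatives and Gstm6, Mup16, Apoc3, Psmb8, Zfp784, Olfr368, Slc22a15 and Reln under 1 to 3. Depth limits the C3 values of Rrp9 and Gtf3a, at 4.69 and 5.67 reads per CpG, and both strains at Zfp97, at 4.52 in B6 and 5.26 in C3.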

Other observations

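Of the 9 windows at which the strain difference depended on sex without a call in sires, all 9 had the larger absolute difference in the dams, which the lack of a call in sires nearly fixes. In an intron of Srgap3 the dams had a difference of -50.1 points (B6 minus C3) while the B6 sires had 59.8, 57.9 and 52.6% and the C3 sires 60.7, 70.3 and 74.2%. In an intronic window of Snd1, 754 bp from the start of Lrrc4 and with 68 CpGs, the sires had 28.2, 35.2 and 33.2% in B6 and 46.6, 35.8 and 34.9% in C3, and the difference in dams was 31.3 points. These windows were chosen after their values were seen.

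With each CpG weighted equally, among CpGs with at least 10 reads in every sire, the B6 sires had 76.7, 77.1 and 76.4% methylation and the C3 sires 77.2, 77.7 and 77.8%. The strains thus did not overlap under this weighting and filter together.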
